A study of Homo sapiens with 12 samples.

Results

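The genes described here are 10 transcriptional outputs of FLT3 signalling: DUSP6, SPRY2, SPRY4, SPRED1, ETV5 and EGR1 from the MAPK arm, and PIM1, PIM2, SOCS2 and CISH from the STAT5 arm. They were chosen by symbol, as feedback and target genes of the pathway, and make up 10 of the 46639 gene symbols, or 22 of the 100502 transcript rows, of the count matrix. All 10 passed the filter on low values (10 or more normalised counts in 3 or more libraries). SPRY4 passed only through the untreated and DAC libraries, of which 5 reached that level, so a difference from the ATRA groups was built into its selection.

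FLT3 is a receptor tyrosine kinase of hematopoietic progenitors. When its ligand binds, or when the receptor carries an activating internal tandem duplication, it signals through RAS, RAF, MEK and ERK (the MAPK arm) and through the transcription factor STAT5. ERK and STAT5 switch on genes that brake the pathway, such as the DUSP, SPRY, SPRED and SOCS families, as well as effectors such as the PIM kinases, and the RNA of these genes is commonly read as the output of the receptor.

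RNA was sequenced from MOLM-13, a human AML cell line with the MLL-AF9 fusion that is also known for an internal tandem duplication of FLT3. Each of the 4 groups held 3 libraries: untreated cells, cells given 100 nM decitabine (DAC, an inhibitor of DNA methyltransferases), cells given 1 µM all-trans retinoic acid (ATRA, the ligand of retinoic acid receptors) and cells given both drugs at these doses (DAC+ATRA). By the labels, treatment ran over 3 days with fresh medium and fresh DAC each day, and all groups grew in 20% FCS with 5 ng/ml human GM-CSF, a cytokine whose receptor also activates JAK2, STAT5 and ERK. The study's own methods give a lower share of FCS and name no GM-CSF. The replicates were technical triplicates of 1 line, so p-values measure only the spread between such libraries. The labels give 96 h for the untreated and 72 h for the treated libraries, and the study added ATRA, dissolved in DMSO, only with the last dose of DAC. No vehicle library was used here. If the labels hold, the different time cannot be told apart from a drug effect wherever a treated group is compared with untreated. DMSO cannot be told apart from ATRA wherever a group with ATRA is compared with one without it, DAC+ATRA against DAC included.

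Untreated libraries held 10.1 ± 1.61 M recovered reads (mean ± SD, n = 3; M stands for mega) and ATRA libraries 9.32 ± 1.21 M, whereas the groups with DAC were shallower, at 5.87 ± 1.15 M with DAC alone and 6.42 ± 0.781 M with both drugs. Of the 10 genes, all but SPRY4 held at least 17 reads in every library. Among 8 myeloid markers, CD68 was listed at 0 in all libraries and 7 were measurable, with summed levels of 4423 to 4586 normalised counts in untreated and 20077 to 31136 in DAC, most of the difference lying in MPO (1513 ± 1.91 against 22033 ± 5415, mean ± SD, n = 3). The summed level was 3019 to 3378 in ATRA and 11823 to 13808 in DAC+ATRA. Among 8 markers of other lineages, MS4A1 was listed at 0, and all except PECAM1 and COL1A1 together summed to 2.51 to 23.3 normalised counts in a library. With PECAM1 and COL1A1 the sums were 3614 to 4579 in untreated, 5543 to 6184 in DAC, 1477 to 1602 in ATRA and 1818 to 2189 in DAC+ATRA. Most of each sum lay in PECAM1, with means of 4123, 5758, 1443 and 1951 in the same order of groups. Resting on 1 gene, these sums are not read as signal of other lineages. The part of these differences in the results below was not tested, nor was the part of depth. In bulk RNA, fewer cells of a type and less RNA per cell cannot be told apart.

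The promoters of CISH and EGR1 are shown because they carry motifs of the factors at the end of the pathway, and because these genes moved differently under ATRA. RefSeq (GRCh38.p14) held a window from 250 bases before to 50 bases after the start for 8 of the 10 genes; SOCS2 and ETV5 were not in it. Windows were searched on both strands for the STAT motif (TTCNNNGAA), the ETS core (CCGGAA), the CRE (TGACGTCA), the CArG box and the retinoic acid response elements DR5 and DR2. The CISH window, chr3:50611725-50612024 on the minus strand, is printed with the STAT matches in capitals, and the EGR1 window, chr5:138465229-138465528 on the plus strand, with the CArG boxes in capitals.
CISH: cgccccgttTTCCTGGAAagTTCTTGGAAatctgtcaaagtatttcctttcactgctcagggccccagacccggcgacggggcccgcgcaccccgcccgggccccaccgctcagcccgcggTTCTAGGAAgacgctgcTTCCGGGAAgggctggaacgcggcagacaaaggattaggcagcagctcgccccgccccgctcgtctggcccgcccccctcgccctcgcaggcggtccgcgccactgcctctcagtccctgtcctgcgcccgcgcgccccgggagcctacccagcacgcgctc
EGR1: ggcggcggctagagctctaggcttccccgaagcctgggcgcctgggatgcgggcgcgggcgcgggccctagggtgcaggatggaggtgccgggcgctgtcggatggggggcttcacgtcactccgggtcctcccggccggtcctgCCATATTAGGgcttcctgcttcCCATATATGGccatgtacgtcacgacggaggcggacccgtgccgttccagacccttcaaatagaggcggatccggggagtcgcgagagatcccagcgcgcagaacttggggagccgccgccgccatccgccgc

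The CISH window held 4 STAT matches, whose first bases lay at -241, -230, -129 and -112 from the start. At least 1 such match was present in 7.66% of the 35116 promoter windows, and at least 4 in 0.0199%, or 7 windows. The match at -112 overlaps an ETS core on the other strand, and a core was present in 17.2% of windows. The EGR1 window held 2 CArG boxes, the element bound by serum response factor, with first bases at -105 and -83, and 1 STAT match at -228. At least 1 CArG box was found in 1.29% of windows and at least 2 in 0.0313%. Of the 3 SPRY2 windows, 1 held an ETS core, and the windows of DUSP6, SPRY4, SPRED1, PIM1 and PIM2 matched none of the motifs. No window of these genes held the CRE (1.85% of all windows), the DR5 element (0.0541%) or the DR2 element (0.0655%). These matches describe the letters in the window only.

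The 10 genes did not move as 1 group (plot of the genes by library). With DAC, 5 of 10 fell and none rose. With ATRA, 4 rose and 3 were called lower, SPRY4 with its built-in selection among them, and with DAC+ATRA, 3 rose and 2 fell. A gene is called changed at a limma adjusted p under 0.01 over the 10642 protein-coding genes tested, and fold changes are on the log2(normalised count + 1) scale, which understates changes of low genes. Of all genes tested, 7.97% were called with DAC against untreated, 4.29% higher and 3.67% lower. With ATRA 26.0% were called, 12.1% higher and 14.0% lower, and with DAC+ATRA 28.9%, 14.5% higher and 14.4% lower. The median log2 fold change of the 10 genes was -0.59 with DAC, 0.33 with ATRA and -0.14 with DAC+ATRA, where the medians of all genes were -0.0041, -0.038 and -0.0039. With DAC the count for the 10 genes was 5 when all groups were fitted together and 3 when only the DAC and untreated libraries were, or when untreated replicate 3 was left out.

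**Figure D1:**
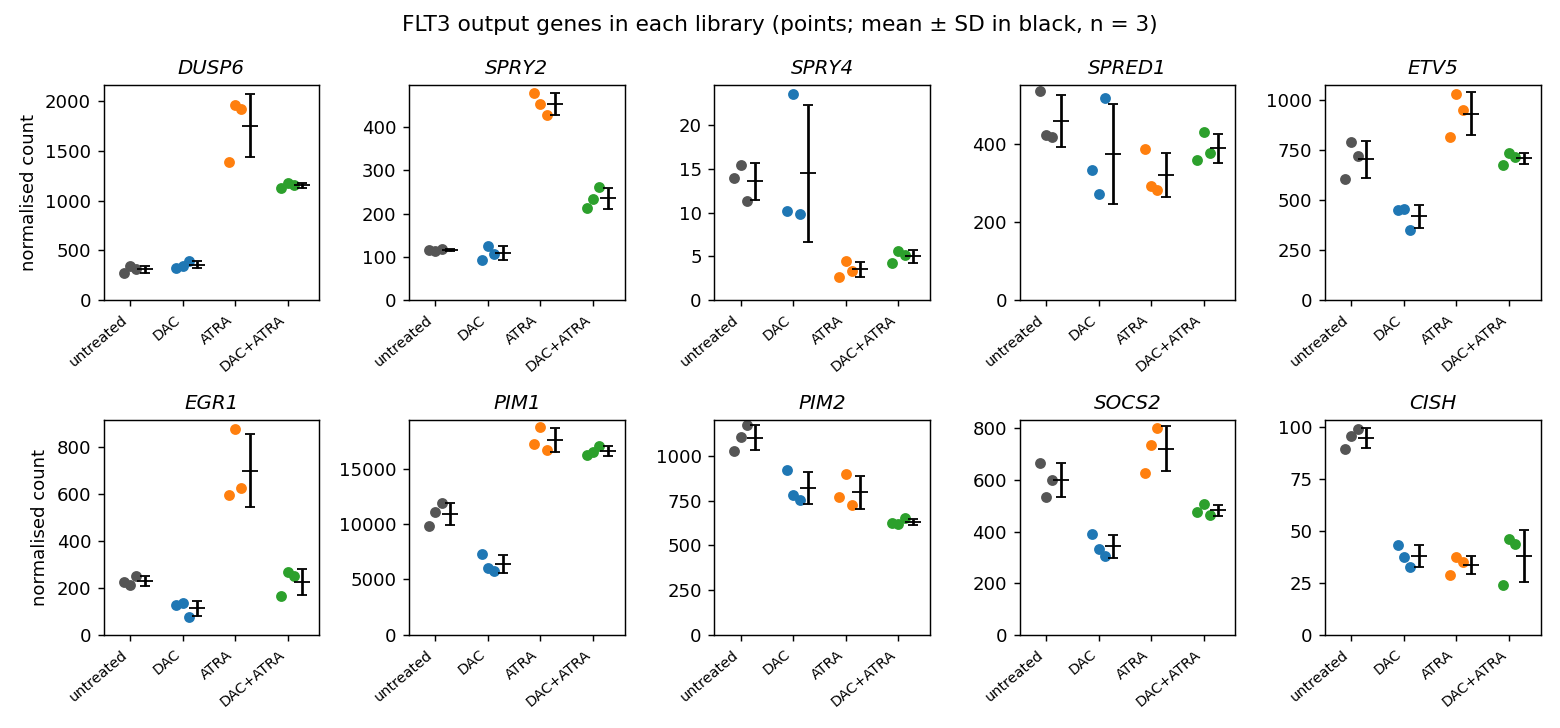
Normalised count (y axis, linear from 0) of each of the 10 genes in the 12 libraries, by group; points are libraries, black marks the mean ± SD (n = 3). The ATRA libraries of DUSP6 (1384 to 1956) and SPRY2 (428 to 478) lie above all others, whereas all 9 treated libraries of CISH (23.8 to 46.2) lie below the untreated ones.

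DUSP6 encodes a phosphatase that removes phosphate from ERK in the cytoplasm and is a direct feedback gene of ERK. Its normalised counts were 270, 343 and 311 in the untreated libraries and 327, 345 and 396 with DAC. They were 1384, 1956 and 1915 with ATRA and 1128, 1173 and 1153 with DAC+ATRA. Both groups with ATRA lay far above both groups without it, and every ATRA library lay above every DAC+ATRA library. DUSP6 rose with ATRA (log2 fold change 2.50 ± 0.14 SE, adjusted p = 2.4e-11) and with the combination (1.91 ± 0.14, adjusted p = 1.55e-09). For DAC alone the value was 0.21 ± 0.14 (adjusted p = 0.328), and untreated and DAC libraries overlapped. DAC+ATRA was lower than ATRA by 0.59 on the log2 scale (adjusted p = 0.00405), a call that was lost without ATRA replicate 2 or 3 or any 1 of the DAC+ATRA libraries (adjusted p = 0.0159 to 0.0344). The row DUSP6-201 held 91.9% of the signal, and DUSP6-204, with means of 21.1 untreated and 156 with ATRA, went the same way.

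SPRY2, a Sprouty protein that dampens RAS and ERK signalling from receptor tyrosine kinases, was likewise highest with ATRA and next highest with DAC+ATRA. It measured 116, 114 and 119 untreated, 92.9, 125 and 106 with DAC, 478, 454 and 428 with ATRA, and 213, 233 and 260 with DAC+ATRA. Untreated and DAC overlapped, and DAC+ATRA formed a separate band between them and ATRA. SPRY2 rose with ATRA (1.96 ± 0.15, adjusted p = 2.67e-09) and with the combination (1.01 ± 0.15, adjusted p = 1.79e-05), and DAC+ATRA was lower than ATRA by 0.95 (adjusted p = 0.000114). In both rows of the gene ATRA was highest and DAC+ATRA next, with a ratio of ATRA to untreated means of 4.92 for SPRY2-201 and 3.67 for SPRY2-202.

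SPRY4, its paralog, had few reads and was lower with ATRA. Its counts were 14.0, 15.4 and 11.3 untreated, 10.2, 23.5 and 9.80 with DAC, 2.69, 4.46 and 3.34 with ATRA, and 4.20, 5.63 and 5.11 with DAC+ATRA. All ATRA and DAC+ATRA libraries lay below all untreated and DAC libraries, but the gene held only 3 to 19 reads in any library. With ATRA the value was -1.70 ± 0.45 (adjusted p = 0.00531), but the filter alone favoured such a difference. With the filter set at 1 normalised count, a level that SPRY4 reached in every library, the limma adjusted p was 0.00518. The value ranged from -1.94 with a pseudocount of 0.1 to -1.13 with a pseudocount of 5, and the call was lost without any 1 of the untreated libraries or without ATRA replicate 1 or 3 (adjusted p = 0.0124 to 0.0285). With DAC+ATRA the value was -1.28 ± 0.45 (adjusted p = 0.0282).

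SPRED1, which recruits the RAS inhibitor neurofibromin to the membrane, was called in no comparison when all libraries were fitted. It measured 537, 423 and 419 untreated, 335, 273 and 519 with DAC, 387, 292 and 283 with ATRA and 360, 430 and 377 with DAC+ATRA. The ATRA libraries lay below the untreated ones and the other groups overlapped with both. The difference from untreated was -0.52 ± 0.19 with ATRA (95% interval -0.92 to -0.13, adjusted p = 0.0372), -0.33 ± 0.19 with DAC (-0.73 to 0.06) and -0.24 ± 0.19 with DAC+ATRA (-0.63 to 0.16). DAC replicate 3 decided these calls: without it SPRED1 was called lower with DAC (-0.59, adjusted p = 0.00823) and with ATRA (adjusted p = 0.00429), whereas without DAC replicate 2 the DAC value was -0.13.

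ETV5, an ETS transcription factor induced by ERK, measured 604, 790 and 722 untreated, 450, 455 and 353 with DAC, 817, 1034 and 951 with ATRA and 679, 735 and 718 with DAC+ATRA. The DAC libraries were lowest and the ATRA libraries highest, without overlap with untreated, whereas DAC+ATRA lay within the untreated range. ETV5 fell with DAC (-0.75 ± 0.13, adjusted p = 0.000586), a call lost when only the DAC and untreated libraries were fitted (adjusted p = 0.0172). With ATRA the value was 0.41 ± 0.13 (adjusted p = 0.0207), which was called by DESeq2 (0.00527) and without DAC replicate 3 (0.0054) or ATRA replicate 1 (0.00978), and with DAC+ATRA it was 0.02 ± 0.13 (95% interval -0.26 to 0.30). DAC+ATRA was higher than DAC by 0.77 ± 0.13 (adjusted p = 0.000176). DGKG, which overlaps ETV5 on the same strand, had means of 160, 208, 80.4 and 78.3 in untreated, DAC, ATRA and DAC+ATRA, an order unlike that of ETV5. The antisense genes ETV5-AS1 and SPRY4-AS1 were listed at 0.

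EGR1, the immediate early zinc finger factor whose promoter is shown above, is also a reader of early ERK activity. Its counts were 223, 210 and 252 untreated, 126, 135 and 76.2 with DAC, 597, 877 and 625 with ATRA and 164, 266 and 250 with DAC+ATRA. DAC was below and ATRA above all untreated libraries, and DAC+ATRA overlapped with untreated. EGR1 fell with DAC (-1.06 ± 0.21, adjusted p = 0.00214), although the call was lost without untreated replicate 3 (adjusted p = 0.0131) and with the DAC and untreated libraries alone (adjusted p = 0.0251). It rose with ATRA (1.59 ± 0.21, adjusted p = 7.72e-06). With both drugs the value was -0.04 ± 0.21 (95% interval -0.49 to 0.41), and DAC+ATRA lay below ATRA by 1.63 (adjusted p = 2.06e-05).

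PIM1 and PIM2 are serine/threonine kinases induced by STAT5 that promote survival and translation downstream of FLT3. PIM1 measured 9852, 11049 and 11856 untreated, 7279, 6028 and 5760 with DAC, 17253, 18756 and 16721 with ATRA and 16253, 16480 and 17072 with DAC+ATRA. DAC lay below untreated, both ATRA groups lay above it, and ATRA and DAC+ATRA overlapped. PIM1 fell with DAC (-0.78 ± 0.11, adjusted p = 4.72e-05) and rose with ATRA (0.69 ± 0.11, adjusted p = 4.56e-05) and with the combination (0.61 ± 0.11, adjusted p = 0.000169). DAC+ATRA differed from ATRA by -0.08 ± 0.11 (95% interval -0.31 to 0.15) and exceeded DAC by 1.39 ± 0.11 (adjusted p = 6.74e-09).

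PIM2 moved against PIM1 under ATRA. Its counts were 1030, 1110 and 1173 untreated, 922, 783 and 755 with DAC, 770, 902 and 724 with ATRA and 624, 620 and 651 with DAC+ATRA. All treated libraries lay below all untreated ones, with DAC+ATRA lowest. PIM2 fell with ATRA (-0.47 ± 0.11, adjusted p = 0.00287) and with the combination (-0.80 ± 0.11, adjusted p = 1.47e-05). The ATRA call was lost without untreated replicate 2 or 3 or ATRA replicate 1 or 3 (adjusted p = 0.0102 to 0.0201). With DAC the value was -0.43 ± 0.11 (adjusted p = 0.0139), which was called by DESeq2 (0.00371), with equal totals (0.00745) and without DAC replicate 1 (0.00658). Without DAC replicate 3, PIM2 was also called lower in DAC+ATRA than in DAC (-0.43, adjusted p = 0.00789).

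**Figure D2:**
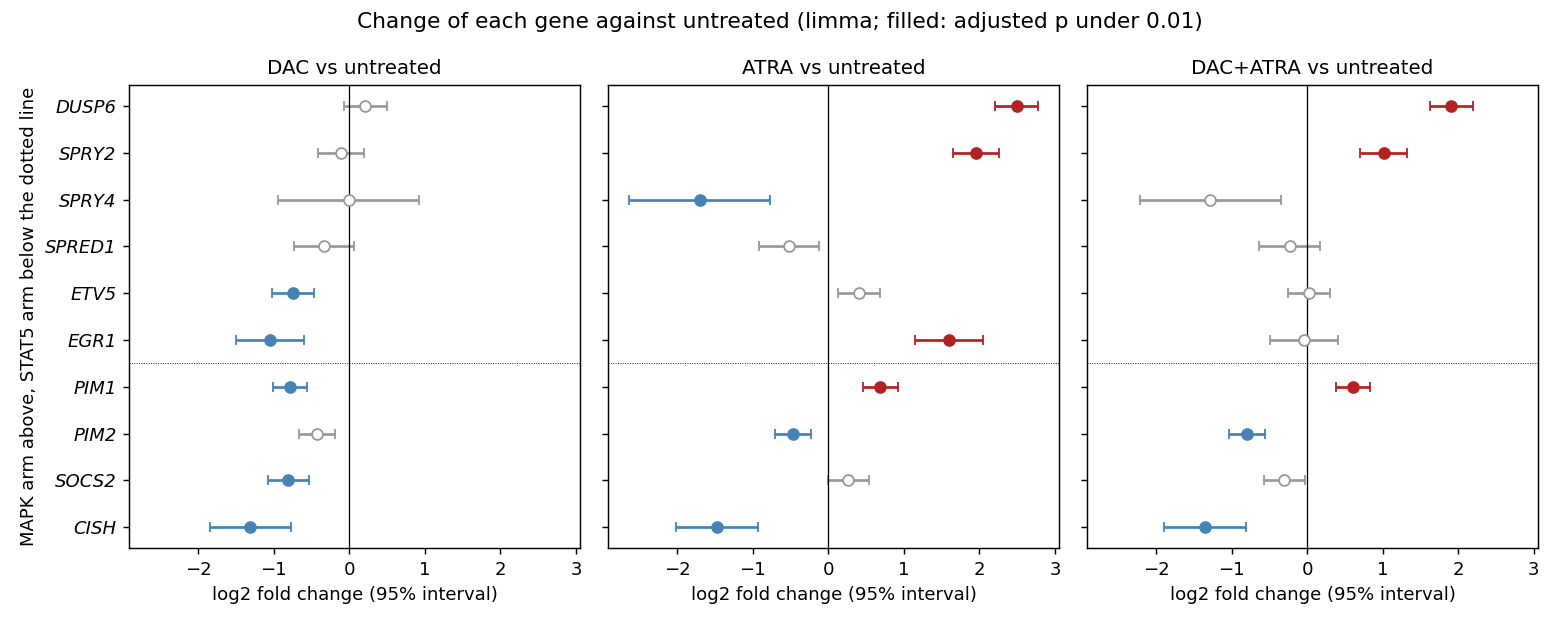
Log2 fold change against untreated (x axis; points with 95% intervals from limma) of the 10 genes in 3 panels, 1 for each treatment; filled red is called higher, filled blue called lower and open grey not called. With DAC the filled points are all blue, whereas with ATRA DUSP6, SPRY2, EGR1 and PIM1 lie to the right and SPRY4, PIM2 and CISH to the left.

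SOCS2 and CISH encode SH2 proteins of the suppressor of cytokine signalling family, which bind phosphorylated receptors and limit JAK and STAT5 activity. SOCS2 measured 664, 535 and 600 untreated, 392, 331 and 304 with DAC, 627, 734 and 800 with ATRA and 477, 505 and 465 with DAC+ATRA. DAC was lowest, ATRA overlapped with untreated, and DAC+ATRA lay below untreated and above DAC. SOCS2 fell with DAC (-0.81 ± 0.13, adjusted p = 0.000238). With ATRA the value was 0.26 ± 0.13 (95% interval -0.01 to 0.53) and with DAC+ATRA it was -0.31 ± 0.13 (adjusted p = 0.066).

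SOCS2 was the gene with the most transcript rows, 7 in all, and the rows did not share 1 pattern (plot of SOCS2 rows). SOCS2-205, the most abundant row with 35.6% of the signal, had means of 218 ± 36.8 untreated, 125 ± 8.77 with DAC, 270 ± 29.7 with ATRA and 150 ± 27.5 with DAC+ATRA (SD, n = 3). SOCS2-201 had 49.3 ± 7.57, 22.8 ± 6.15, 43.3 ± 6.96 and 52.7 ± 11.8. All 7 rows had a lower mean with DAC than untreated, whereas the ratio of DAC+ATRA to DAC ranged from 1.06 for SOCS2-207 to 2.31 for SOCS2-201. For the sum over rows, DAC+ATRA exceeded DAC by 0.50 ± 0.13 (adjusted p = 0.00624) and lay below ATRA by 0.57 (adjusted p = 0.0036). On SOCS2-205 alone the first difference was 0.25 (adjusted p = 0.31). It was also lost with the DAC and DAC+ATRA libraries alone (adjusted p = 0.0185), with a block for the replicate number (0.0128), and without DAC replicate 2 or 3 or any 1 of the DAC+ATRA libraries (0.0172 to 0.0329). The second was lost without ATRA replicate 2 or 3 or any 1 of the DAC+ATRA libraries (0.0112 to 0.0267). SOCS2-AS1, on the opposite strand, had means of 33.5 to 42.9 in the 4 groups.

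**Figure D3:**
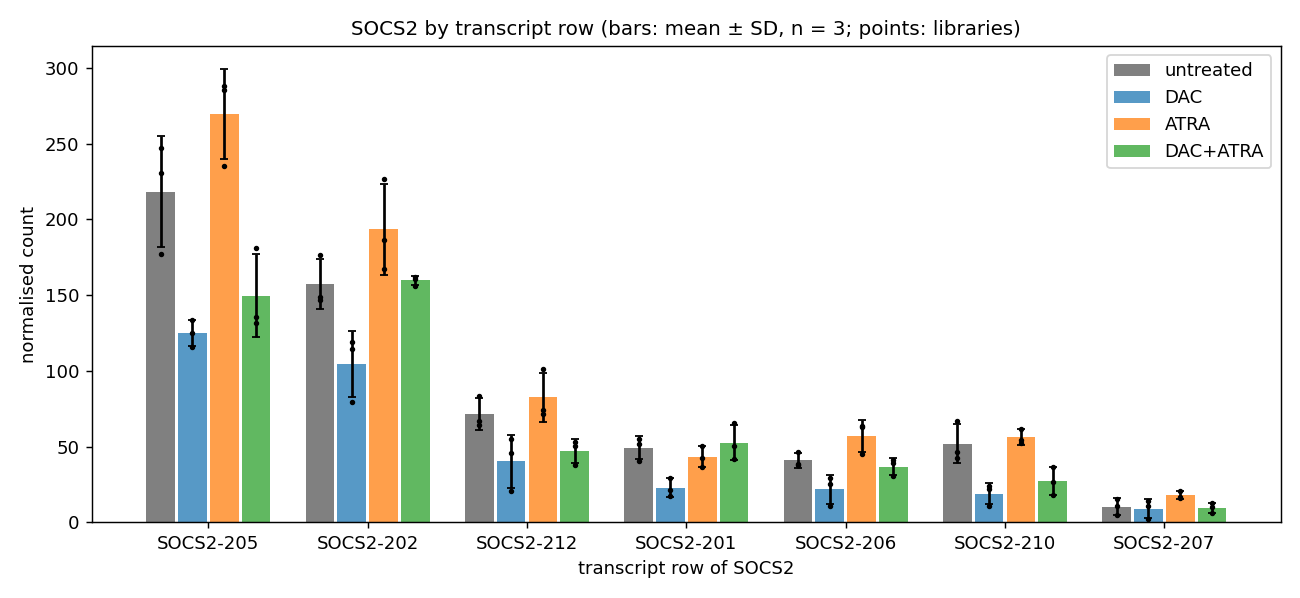
Normalised count (y axis, linear from 0) of each of the 7 SOCS2 transcript rows (x axis) by group; bars are means with SD (n = 3) and points are libraries. DAC bars lie below untreated bars in all rows, and SOCS2-201 and SOCS2-202 differ from SOCS2-205 in that their DAC+ATRA means (52.7 and 160) are near the untreated ones (49.3 and 157).

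CISH, whose promoter held the 4 STAT matches, was the 1 gene of the 10 called lower in all 3 treated groups. It measured 89.4, 95.8 and 99.1 untreated, 43.3, 37.6 and 32.7 with DAC, 28.7, 37.2 and 35.1 with ATRA and 23.8, 46.2 and 43.9 with DAC+ATRA. Every treated library lay below every untreated library, and the treated groups overlapped. CISH fell with DAC (-1.31 ± 0.26, adjusted p = 0.00162), with ATRA (-1.47 ± 0.26, adjusted p = 0.000149) and with the combination (-1.35 ± 0.26, adjusted p = 0.000329). The DAC call was just lost without untreated replicate 2 (adjusted p = 0.0104) or 3 (0.0101). DAC+ATRA differed from DAC by -0.04 ± 0.26 (95% interval -0.58 to 0.50) and from ATRA by 0.12 ± 0.26 (-0.42 to 0.66). These libraries held 17 to 158 CISH reads each, and 94.4% of the signal lay in CISH-202. MAPKAPK3, which overlaps CISH on the opposite strand, had means of 152, 161, 105 and 159 in untreated, DAC, ATRA and DAC+ATRA, and whether the authors counted by strand is not given in the sources used here.

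When ATRA was added to DAC, 6 of the 10 genes were higher than with DAC alone and none lower: DUSP6 (1.69), PIM1 (1.39), SPRY2 (1.12), EGR1 (1.02), ETV5 (0.77) and SOCS2 (0.50). Of all genes, 18.8% were called in this comparison, 9.04% higher and 9.74% lower. The EGR1 call was lost without DAC+ATRA replicate 2 (adjusted p = 0.0121) or 3 (0.0106). When DAC was added to ATRA, 4 of the 10 were lower than with ATRA alone and none higher: EGR1 (-1.63), SPRY2 (-0.95), DUSP6 (-0.59) and SOCS2 (-0.57). Here 11.9% of all genes were called, 6.47% higher and 5.46% lower. The count was 2 without ATRA replicate 2 or 3 or any 1 of the DAC+ATRA libraries. These comparisons share libraries with each other and with those against untreated.

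The interaction, the DAC effect in the presence of ATRA minus that in its absence, was called for none of the 10 genes by limma, against 1.60% of all genes. At an unadjusted p under 0.05 there were 5. The values were 1.43 ± 0.36 for CISH (adjusted p = 0.0328), 0.70 ± 0.15 for PIM1 (0.0119), -0.80 ± 0.19 for DUSP6 (0.0226), -0.83 ± 0.21 for SPRY2 (0.0278) and 0.62 ± 0.27 for SPRED1 (0.272). DESeq2 on the recovered reads called 4 of these, namely CISH, PIM1, DUSP6 and SPRY2, and edgeR called 1, PIM1. limma called PIM1 without DAC replicate 1 (adjusted p = 0.0035) or 3 (0.00987), DUSP6 without ATRA replicate 1 (0.00272) and CISH without DAC+ATRA replicate 1 (0.00623). A positive value means that DAC+ATRA exceeded what the log2 changes of DAC and ATRA add up to, as for CISH and PIM1, and a negative value that it lay below, as for DUSP6 and SPRY2.

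FLT3 itself was measured at 14247, 13963 and 13871 untreated, 7791, 7493 and 9559 with DAC, 8700, 8549 and 7479 with ATRA and 7681, 7130 and 7173 with DAC+ATRA. It was lower in all 9 treated libraries than in any untreated one. The log2 fold changes were -0.77 ± 0.11 with DAC (adjusted p = 4.43e-05), -0.77 ± 0.11 with ATRA (adjusted p = 9.35e-06) and, for the combination, -0.94 ± 0.11 (adjusted p = 8.59e-07). STAT5B had means of 1457 to 1623 in the 4 groups and STAT5A of 10.4 to 16.6, and neither was called. CSF2RB, the signalling chain of the GM-CSF receptor, was higher with ATRA (0.84 ± 0.15, adjusted p = 0.000141) and with the combination (0.97 ± 0.15, adjusted p = 3.05e-05), and its partner CSF2RA was listed at 0. The annotation holds CSF2RA at the same coordinates on chromosomes X and Y. Whether reads that fit both copies were left out was not tested, so this 0 is not read as absence of the RNA. Of 29 tested genes for FLT3 and its signalling proteins, 3 were called lower with DAC (BRAF, FLT3 and SOS1), or 10.3% against 7.97% of all genes. The BRAF call was lost in 15 of 25 alternatives (adjusted p up to 0.0736) and that of SOS1 in 5 of 25 (up to 0.0255). With ATRA 4 rose and 3 fell, or 24.1% against 26.0% of all genes, and with DAC+ATRA 5 rose and 6 fell, or 37.9% against 28.9%. JAK2, the kinase bound to the GM-CSF receptor, rose with ATRA (1.42 ± 0.12) and DAC+ATRA (0.90 ± 0.12). With DAC+ATRA the largest rises were those of FES (1.45) and PTPRJ (1.12), and the largest falls those of CBLB (-1.23), a ubiquitin ligase, and SOS1 (-1.19), which loads RAS with GTP. The FES call was lost in 4 of 25 alternatives (adjusted p up to 0.0143) and that of PTPRJ in 1 (0.0197). Those of NRAS (lower), SOS2 (lower) and LYN (higher) were lost in 6, 2 and 2 of 25 (up to 0.0266, 0.0207 and 0.0127). With ATRA, the calls of CBL (lower) and MAP2K1 (higher) were lost in 4 and 5 of 25 (up to 0.0305 and 0.0322).

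Of 17 other MAPK output genes, 10 were tested. With DAC 4 fell (DUSP5, DUSP7, EGR2 and EGR3), with ATRA 5 rose (the same 4 and DUSP4) and CCND1 fell, and with DAC+ATRA 3 rose and 2 fell, which is 40% of the genes tested with DAC, 60% with ATRA and 50% with DAC+ATRA, against 7.97%, 26.0% and 28.9% of all genes. EGR2 passed the filter on low values only through ATRA libraries and DUSP4 only through the groups with ATRA, so a difference was built into their selection. The DAC call of EGR2 was lost in 5 of 24 alternatives (adjusted p up to 0.0226), and the call of DUSP5 as higher with DAC+ATRA in 14 of 25 (up to 0.0567). The median log2 fold change of these 10 genes was -0.35 with DAC, 1.27 with ATRA and -0.39 with DAC+ATRA. DUSP4, an ERK phosphatase of the nucleus, was at the floor of 3 reads per library without ATRA and had 135 ± 2.80 normalised counts with ATRA, at least 60.9-fold higher than untreated. With DAC+ATRA it had 113 ± 5.58, at least 51.0-fold higher. DUSP7 had means of 589 ± 96.5 untreated, 316 ± 79.3 with DAC, 2140 ± 268 with ATRA and 1191 ± 17.3 with DAC+ATRA. RASA2, a RAS GTPase activating protein, was lower with DAC+ATRA (-0.75, adjusted p = 0.0032), a call lost in 4 of 25 alternatives (up to 0.0261).

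Of 9 other STAT5 target genes, 8 were tested, of which 4 fell with DAC (IL2RA, OSM, PIM3 and SOCS3). With ATRA SOCS3 rose and 3 fell, and with DAC+ATRA 2 fell and none rose. So 50% of the genes tested were called with DAC, 50% with ATRA and 25% with DAC+ATRA. Of all genes, 7.97%, 26.0% and 28.9% were called in these comparisons, so the DAC+ATRA share of the list was below that of all genes. OSM, a cytokine gene induced by STAT5, fell from 565 ± 27.3 untreated to 125 ± 34.6 with DAC, 82.7 ± 31.8 with ATRA and 19.5 ± 12.7 with DAC+ATRA, the same direction in each group as CISH. PIM3, the third PIM kinase, was called lower with DAC (-0.65 ± 0.15, adjusted p = 0.00638; lost in 8 of 25 alternatives, adjusted p up to 0.0368) and with the combination (-0.81 ± 0.15, adjusted p = 0.000292). Its value with ATRA was 0.24 ± 0.15 (95% interval -0.08 to 0.56). SOCS3 had means of 1006 ± 137, 409 ± 41.1, 5061 ± 1120 and 770 ± 103 in untreated, DAC, ATRA and DAC+ATRA.

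EGR1 was set beside EGR2, EGR3 and the 11 listed immediate early genes, which respond to ERK and other signals within minutes (plot of early genes). With DAC 4 of the 11 fell, with ATRA 6 rose and none fell, and with DAC+ATRA 2 rose (FOSB and FOS) and 6 fell, NR4A1 (-2.35) and ATF3 (-2.05) the most. No DAC+ATRA library of NR4A1 or ATF3 reached 10 normalised counts, so both passed the filter on low values only through other groups. A lower value with DAC+ATRA was thus built into their selection, which bears on their part in the counts here. Together the 3 DAC+ATRA libraries held only 6 reads of NR4A1 and 9 of ATF3. The called share was 36.4% with DAC, 54.5% with ATRA and 72.7% with DAC+ATRA, against 7.97%, 26.0% and 28.9% of all genes. All 11 were lower with DAC+ATRA than with ATRA alone, where 5.46% of all genes were, although the ATF3 call was lost in 7 of 24 alternatives (adjusted p up to 0.0341). The DAC+ATRA call of ATF3 against untreated was lost in 2 of 24 (up to 0.0192) and that of FOS in 1 of 25 (0.132). That of IER2 was lost in 3 of 25 (up to 0.0266) and that of KLF6 in 1 of 25 (0.0424). The DAC call of KLF6 was lost in 5 of 25 (up to 0.0806). EGR3 went from 110 ± 15.1 untreated to 14.9 ± 9.09 with DAC, 2355 ± 482 with ATRA and 32.9 ± 11.8 with DAC+ATRA, and the difference of DAC+ATRA from ATRA was -6.16 on the log2 scale, against -1.63 for EGR1.

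**Figure D4:**
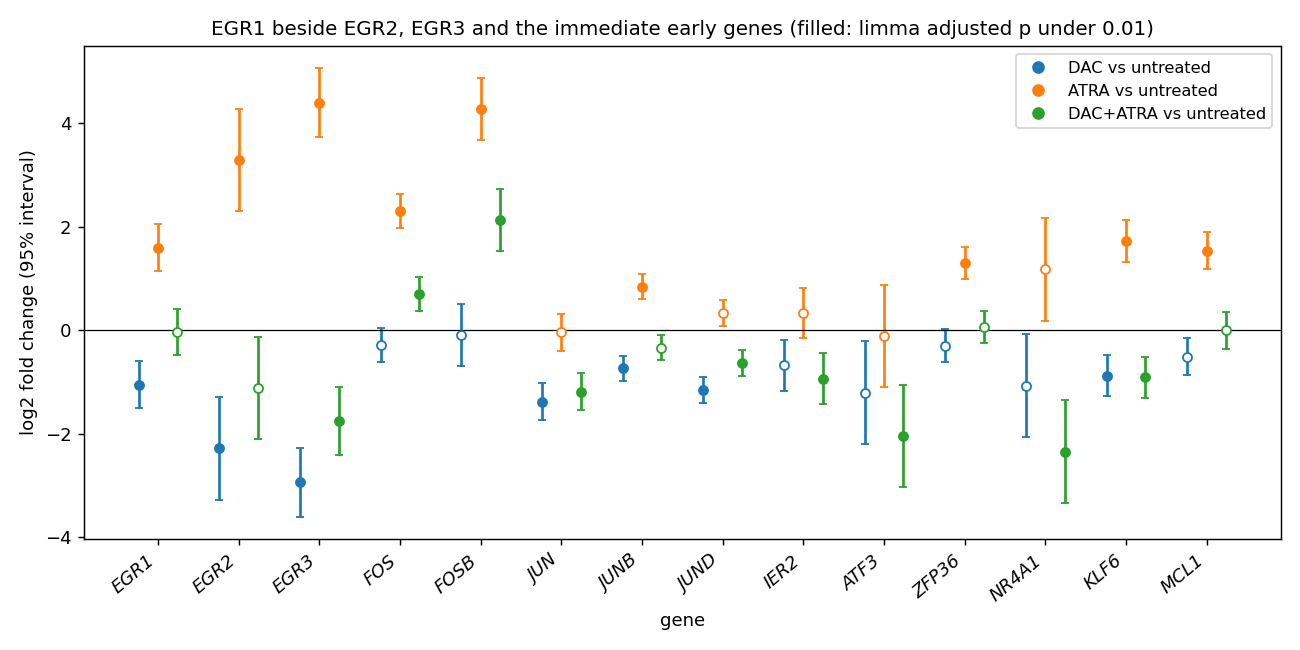
Log2 fold change against untreated (y axis; points with 95% intervals from limma) of EGR1, EGR2, EGR3 and 11 immediate early genes (x axis) with DAC (blue), ATRA (orange) and DAC+ATRA (green); filled points are called. ATRA points lie highest for all genes shown, and EGR1 (1.59 with ATRA, -0.04 with DAC+ATRA) has a smaller span than EGR3 (4.40 and -1.76).

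The genes whose log2 values over the 12 libraries were most like those of DUSP6, out of 5606 with a mean of at least 100 normalised counts, were NUAK2 (Pearson r = 0.992), CYP26A1 (0.990) and NCF1 (0.989). NUAK2 had means of 11.5 untreated, 13.9 with DAC, 678 with ATRA and 346 with DAC+ATRA. CYP26A1, which degrades retinoic acid, was listed at 0 in all untreated and DAC libraries and had means of 1331 with ATRA and 384 with DAC+ATRA. Both genes reached the mean of 100 only through the groups with ATRA, so a pattern high with ATRA was built into their selection. NCF1, a subunit of the phagocyte NADPH oxidase, had means of 1332, 1360, 12357 and 6045 in untreated, DAC, ATRA and DAC+ATRA. For SOCS2 the nearest genes were ZNF862 (0.979), JUND (0.952) and OCSTAMP (0.945), and OCSTAMP had means of 963, 189, 1640 and 640 in the same order of groups. The libraries share their groups, so these coefficients describe likeness over 4 groups of 3 and carry no test.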

How the data were processed

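RNA of MOLM-13 cells was measured in 12 libraries, 3 in each of 4 groups. The authors depleted ribosomal RNA and prepared strand-specific libraries. The submitters' notes name FastQC, STAR, HTSeq, DESeq2 and hg38. The deposited values are a signal per Ensembl transcript: read counts that the authors divided by 1 size factor per library, called normalised counts here. In each library 100% of values were whole multiples of 1 step (tolerance 0.01 reads), so reads were recovered by division. Reads that fit several transcripts may be missing, so levels were not compared between genes.

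Rows were summed per symbol. Columns named CTRL were taken as untreated. Biotypes and positions came from GENCODE release 44 (GRCh38), which held 88.9% of rows. limma 3.58.1 in R 4.3.3 (lmFit, eBayes with trend) was fitted to log2(normalised count + 1) of protein-coding genes that reached 10 normalised counts in 3 or more libraries, with all 12 libraries and a coefficient per group. P-values were adjusted by Benjamini-Hochberg over all genes tested, and called under 0.01. The fit was repeated with DESeq2 1.42.0 and with edgeR 4.0.16 on recovered reads, TMM factors, equal totals, pseudocounts of 0.1 and 5, other filters, all symbols, only the compared groups, a replicate block, a threshold of 0.05, the most abundant row, and leaving out each library.

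The members and lists were chosen with earlier results of these data known. Named besides the members were FLT3, STAT5A, STAT5B, CSF2RA and CSF2RB, up to 2 called genes per list with the largest rise and fall with DAC+ATRA, the 3 genes most correlated with DUSP6 and with SOCS2, and genes overlapping a member. DUSP5, EGR2, BRAF, CCND1, IL2RA, SOCS3, JAK2, NRAS, SOS2, LYN, CBL, MAP2K1, IER2 and KLF6 were named after their values were seen. Of the markers of other lineages, 1 is not reported here. Marker lists also gave, with DAC+ATRA, CD33 (0.88) and MPO (2.78) higher and FCGR1A (-1.23) lower, and COL1A1 (2.50) higher and PECAM1 (-1.08) lower. COL1A1 passed the filter on low values only through treated groups, so a difference from untreated was built into its selection. Intervals are 95% intervals of the fit.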

Additional observations from a re-analysis of the deposited data

Results flagged for a closer look

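For 10 listed genes, the lineage marker COL1A1 among them, and none of the 10 members, the change with DAC differed between cells with and without ATRA by the limma interaction test (adjusted p under 0.01). Of all genes tested, 1.60% were called. The share was 10% of 10 tested other MAPK output genes and 37.5% of 8 other STAT5 targets. It was 6.9% of 29 genes for FLT3 and its signalling proteins and 27.3% of 11 immediate early genes. Of 3 tested markers of other lineages 33.3% were called, and of 7 myeloid markers none. COL1A1 passed the filter on low values only through treated groups, so a low untreated value was built into its selection. The values are the DAC effect with ATRA minus that without it, on the log2 scale. Below the sum of both single changes lay EGR3 (-3.21, adjusted p = 0.000249), FOSB (-2.06, 0.00555), COL1A1 (-2.04, 0.0086), KLF6 (-1.75, 0.000627), SOCS3 (-1.41, 0.000481), FOS (-1.31, 0.00146) and JAK2 (-0.87, 0.00448). Above it lay IL2RA (3.01, 0.000627), CCND2 (1.45, 3.44e-06) and CBL (0.84, 0.00676). The call was lost in 16 of 23 alternatives for COL1A1 (adjusted p up to 0.034), 11 of 24 for JAK2 (up to 0.0196), 10 of 24 for CBL (up to 0.0295) and 9 of 24 for FOSB (up to 0.0287). The other 6 genes kept it in every alternative run.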

How the results depend on the processing

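Over 1484 recomputed values of the 10 genes in the 6 comparisons, 1399 kept their direction and side of the threshold, 34 lost a call, 31 gained one and 20 changed sign, none of the latter a called value. Of 135 called values of other listed genes, 95 kept the call in every alternative. In 31 of 60 member comparisons nothing changed under any alternative. The count with DAC was 3 with only the compared groups, and 3 to 6 when a library was left out. Leaving out a library, the count ranged from 2 to 4 for DAC+ATRA against ATRA and from 0 to 1 for the interaction. The interaction count was 4 with DESeq2, 1 with edgeR and TMM factors, 1 with equal totals and 4 at an adjusted p under 0.05. With ATRA, the calls of SPRY4 and PIM2 were lost without untreated replicate 2 or 3 or ATRA replicate 1 or 3. SPRED1 and ETV5 were gained without DAC replicate 3, and ETV5 also without ATRA replicate 1. In DAC+ATRA against DAC, SOCS2 and EGR1 were lost without DAC+ATRA replicate 2 or 3, and PIM2 was gained without DAC replicate 3. Over the genes tested, DAC replicate 3 was less like DAC replicates 1 and 2 than these were like each other. The chi-square per gene of reads scaled for depth was 20.0 and 12.9, against 4.10. Pairs within the other groups lay at 2.17 to 12.8. The cause of the lost and gained calls was not tested. Values that changed sign, with their range over leaving out a library, were those of SPRY4 with DAC (0.069 with DESeq2, 0.059 with edgeR and 0.0063 with a pseudocount of 5; range -0.40 to 0.19), CISH in DAC+ATRA against DAC (0.034 with DESeq2 and 0.031 with edgeR; range -0.21 to 0.25) and against ATRA (range -0.047 to 0.42), ETV5 with DAC+ATRA (-0.00676 with equal totals; range -0.089 to 0.10), EGR1 with DAC+ATRA (range -0.17 to 0.18), SPRED1 in DAC+ATRA against DAC (range -0.10 to 0.36) and SOCS2 for the interaction (-0.068 on its most abundant row).

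Same-numbered libraries of different groups did not deviate together (median r 0.0047 over 18 pairs, 0.00074 over 36 other pairs), so the numbers were not taken as pairs. With a replicate block, the count of members called in DAC+ATRA against DAC was 5 in place of 6, the other counts of called members were as without it, and 1 member call was lost, that of SOCS2 in DAC+ATRA against DAC. Few reads limit SPRY4, at 3 to 19 per library, and technical triplicates limit all tests to the spread within 1 experiment.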
